A study of Mus musculus with 1024 samples.

Results

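Smooth muscle cells of the mouse aorta were compared between mice in which Amotl2 was deleted in endothelial cells (ECs) and wild-type (WT) mice, to ask whether the deletion is seen in the neighbouring cells that do not carry it. Single aortic cells, 1 to a well, were read with Smart-seq2, which amplifies the polyadenylated RNA of a cell without molecular identifiers, so that counts are reads rather than molecules. Of 1024 wells, 128 held cells of the control gate (Cd31- Cd45-), and 108 of these reached 20000 gene counts and 500 detected genes. The smooth muscle cells were chosen by their own measured values and were the 70 of them with no count of the endothelial gene Cdh5 and with a mean ln(1 + counts per 10000) of Acta2, Myh11, Tagln and Cnn1 above that of the fibroblast genes Dcn, Lum, Col1a1 and Col1a2.

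Both genotypes were on a C57BL/6 background, were 3 months old and carry the same strain label, Amotl2flow/flow / Cdh5-RREert /ROSA26-EYFP. In the study's methods this is a floxed Amotl2 allele, a tamoxifen-inducible Cre under the Cdh5 promoter and an EYFP reporter that the Cre switches on. Knockout (KO) mice were given tamoxifen. Whether WT mice carry the Cre or were given tamoxifen is not stated. An effect of either cannot be told apart here from that of the deletion. The labels name no single mouse. Each genotype was represented by 6 mice. How their aortas were combined or divided between the sorts is not known here. The replicate was therefore the sort, with n = 2 per genotype (WT sorts 1 and 2, KO sorts 1 and 2). Sorts of the same number were taken to share a preparation, which the labels do not say. In sort 1 WT and KO cells were on separate plates. There the effect of the plate cannot be told apart from that of the genotype. Both genotypes of sort 2 shared a plate. Nothing in the labels gives the spread between mice, so a p-value here measures the spread between sorts.

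Smooth muscle cells of the medial layer hold the tone of the artery through actin and a smooth muscle myosin, build its elastic lamellae and collagen, and can exchange the contractile program for a synthetic one when the wall is injured or inflamed. They receive nitric oxide, endothelin, prostanoids, PDGF and Notch ligands from the ECs beside them. AMOTL2 is a scaffold protein of the angiomotin family that links cell junctions to actin and binds YAP, and the Cdh5-driven Cre is made in ECs.

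The 70 cells came from all 4 sorts, with 16 and 10 cells from WT sorts 1 and 2 and 31 and 13 cells from KO sorts 1 and 2. The cells of the second KO sort were the shallowest, with a median of 45823 counts, against 107592 and 103842 in the WT sorts and 186603 in KO sort 1. Summed per sort the cells gave 2477234 and 903697 counts for WT and 7251739 and 814086 counts for KO. The largest single cell made up between 12.1% and 21.9% of its sum. Rn45s, the ribosomal RNA precursor, took between 116796 and 140732 CPM, the counts scaled by the total gene counts of a sum, of the 4 sums.

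Both sets of genes that chose the cells left a wide gap between the classes. The difference of the 2 scores was between 2.216 and 4.33 in the smooth muscle cells, with a median of 3.32, and the nearest well without a Cdh5 count that was not chosen was at -2.11. A further well of WT sort 2 had a score difference of 0.06 and was left out for its 38 counts of Cdh5. The 12 wells left out for depth alone had at most 18120 counts.

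**Figure D1:**
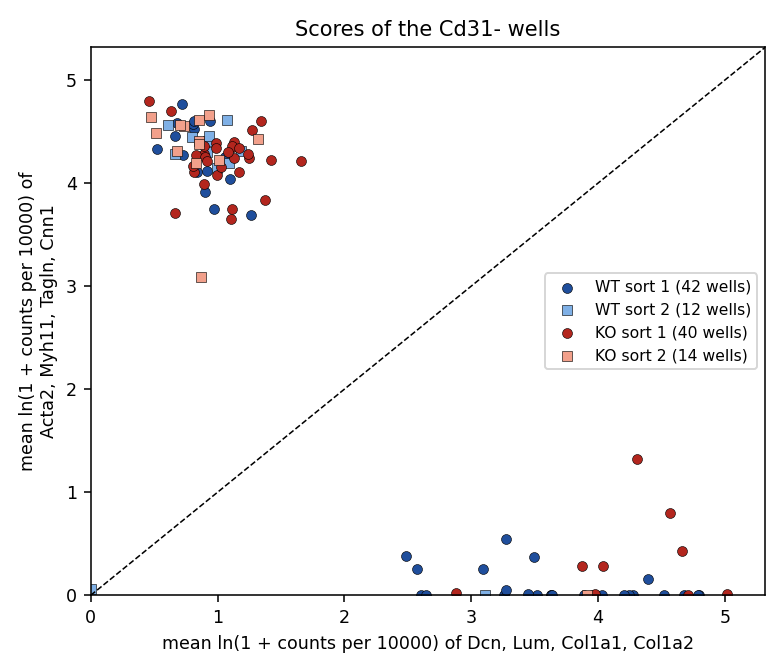
Each point is 1 of the 108 wells of the Cd31- gate that passed the depth filter, with its fibroblast score on the horizontal axis and its contractile score on the vertical axis, both in mean ln(1 + counts per 10000), and the dashed line marks equal scores. The 70 smooth muscle cells form a group above the line, with a score difference of at least 2.216, in all 4 sorts.

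The cells carried the markers of smooth muscle. Summed over the 16 contractile genes of the list that the rule did not use, the level was 30853 and 31445 CPM in the WT sums and 29940 and 31987 CPM in the KO sums. None of the leukocyte genes Ptprc, Lyz2, Tyrobp or Csf1r had a count, and 11 of 12 leukocyte markers were at 0. Of 16 endothelial markers 8 had no count in any sum, among them Kdr, Tie1, Tek, Emcn, Cldn5 and Nos3, and the list summed to between 130.2 and 151 CPM in smooth muscle cells against 20416 to 23981 CPM in the ECs of the same sorts. The adhesion protein gene Esam and the transcription factor gene Erg made up most of that remainder, at up to 80.8 and 77.5 CPM. The smooth muscle cells were chosen from the Cd31- gate without a Cdh5 count, and the ECs with one. The contrast between the classes in endothelial markers follows in part from that choice. Fibroblast markers, among them the 4 of the rule, summed to 2277 and 1990 CPM in WT and 2710 and 1840 CPM in KO, most of it collagen I and gelsolin. Dcn, which was used in choosing the cells, was at 4.44 and 0 CPM in WT and at 51.6 and 9.83 CPM in KO, and 71.4% of the KO sort 1 counts came from 1 cell. Pericytes share several genes with these cells, and Rgs5, a G protein regulator of mural cells, was at 2536 and 1221 CPM in WT and 1531 and 1176 CPM in KO, while the pericyte gene Higd1b was at 0. Xist had no count in any sum and the Y-linked genes together with it summed to between 146 and 226 CPM, so the RNA read in all 4 sums included that of male cells.

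The Cre reporter was not detected in the smooth muscle cells. EYFP had a count in 0 of 31 and 0 of 13 cells of KO sorts 1 and 2. The 95% exact binomial interval of 0 of 44 cells reaches 8.04%, for counting error only. In the ECs of the same KO sorts EYFP had a count in 78.0% (95% exact binomial interval 72.8 to 82.7) and 85.4% (76.3 to 92.0) of the cells, and in WT ECs in 1.86% and 4.17%. The 26 WT smooth muscle cells had no EYFP count either.

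Amotl2 itself, at chr9:102716672-102733418 on GRCm38, was read in part of the smooth muscle cells, at a level that varied between the sums. Its level was 37.9 and 18.8 CPM in the WT sums and 37.5 and 116.7 CPM in the KO sums, with a count in 9 of 26 WT and 20 of 44 KO cells. KO sort 1 lay inside the WT range and KO sort 2 above it. The log2 fold change of KO against WT was 1.48 (SE 0.81, 95% interval -0.29 to 3.25), which did not pass the test (edgeR's quasi-likelihood test, unadjusted p = 0.0926, adjusted p = 0.9997). In the ECs the same gene was at 61.1 and 94.4 CPM in WT and 52.3 and 45.7 CPM in KO. Smooth muscle cells were below the ECs of the same sort in both WT sorts and in KO sort 1, and above them in KO sort 2. The test of the difference between the cell classes gave an unadjusted p of 0.0591 and an adjusted p of 1.00. The table holds 1 count for a whole gene, so a transcript lacking the floxed exon is counted like an intact one. Of the relatives, Amotl1 was at 149.8 and 74.1 CPM in WT and 83.3 and 65.1 CPM in KO, and Amot was near 0.

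Across all genes no difference between KO and WT smooth muscle cells passed the test. Of 8985 genes tested, 0 (0%) had an adjusted p under 0.05 with edgeR, the smallest adjusted p was 0.9997, and 309 (3.44%) had an unadjusted p under 0.05, 194 (2.16%) of them higher in KO and 115 (1.28%) lower. DESeq2 on the same sums called 8 genes, and edgeR without a filter on low counts called 1, desmin. The count was 7 without WT sort 1, 13 without WT sort 2, 5 without KO sort 1 and 0 without KO sort 2, fits in which 1 genotype is a lone sum assumed to vary like the other 2. Both KO sums lay above both WT sums for 1393 genes (15.5%) and below both for 1448 genes (16.1%). These shares stand beside every count of list genes given below as higher or lower in both KO sums.

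The distance between the KO sums lay within the range of their distances from the WT sums. Over the 1615 genes tested of at least 100 CPM the root mean square difference was 0.69 on the log2 scale between the 2 KO sums and 0.71 between the 2 WT sums. The 4 distances between a WT and a KO sum were 0.62, 0.65, 0.67 and 0.78. For these genes the 95% interval of a log2 fold change, before adjustment for the number of genes, reached a median of 0.98 to either side, so a gene that missed the threshold is not shown to be equal in the 2 genotypes.

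**Figure D2:**
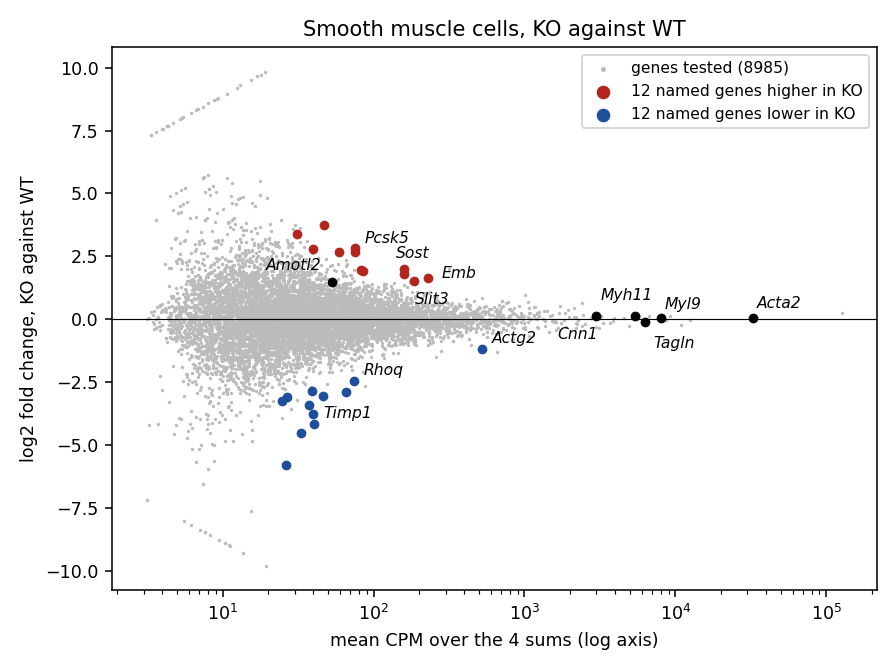
Each grey point is 1 of 8985 genes tested, with its mean CPM over the 4 sums on a log axis and its log2 fold change of KO against WT in smooth muscle cells from edgeR on the vertical axis. Black points mark Acta2, Myh11, Tagln and Cnn1, which chose the cells, and Myl9 and Amotl2. The 24 named genes, Actg2 at -1.19 among them, are in red and blue and lie at the edge of the cloud for their level. None of the 24 passed the adjusted test. Genes with no count in 1 genotype form the outer rows, where the fold change depends on the prior count.

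No contractile gene outside the rule passed the test between KO and WT, and the levels of most overlapped. Per length of transcript the highest genes of the cells were Acta2, the smooth muscle actin, at a mean of 56348 TPM (reads per length of transcript, scaled to the same total in each sum, with exon lengths of GENCODE M21), and Myl9, the regulatory myosin light chain, at 25963 TPM. For this comparison the 4 genes that chose the cells are given in the text as levels only. Acta2 was at 32873 and 32526 CPM in WT and at 33600 and 32096 CPM in KO, Myh11, the smooth muscle myosin heavy chain, at 4713 and 5801 CPM against 5052 and 6143 CPM, and the 2 genotypes overlapped in both genes. Myl9, which did not choose the cells, was at 8319 and 7716 CPM in WT and at 8028 and 7905 CPM in KO. Its KO values lay between the WT values, with a log2 fold change of 0.03 (95% interval -0.50 to 0.56), a sign that turned with thinning of the cells, in deep cells alone and without WT sort 2. Mylk, the myosin light chain kinase, had 1720 and 1585 CPM in WT and 1448 and 1554 CPM in KO. Flna, Tpm1, Tpm2, Cald1, Smtn, Vcl and Synpo2 had log2 fold changes between 0.03 and 0.14. Of the 16 contractile genes tested that did not choose the cells none passed, 1 was higher in both KO sums and 4 were lower, beside 15.5% and 16.1% of all genes. Their median log2 fold change was 0.05, beside 0.01 over all genes tested. As for the other lists, the median is given with its lowest and highest value when 1 sort was left out, here -0.14 without KO sort 2 and 0.16 without WT sort 2.

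**Figure D3:**
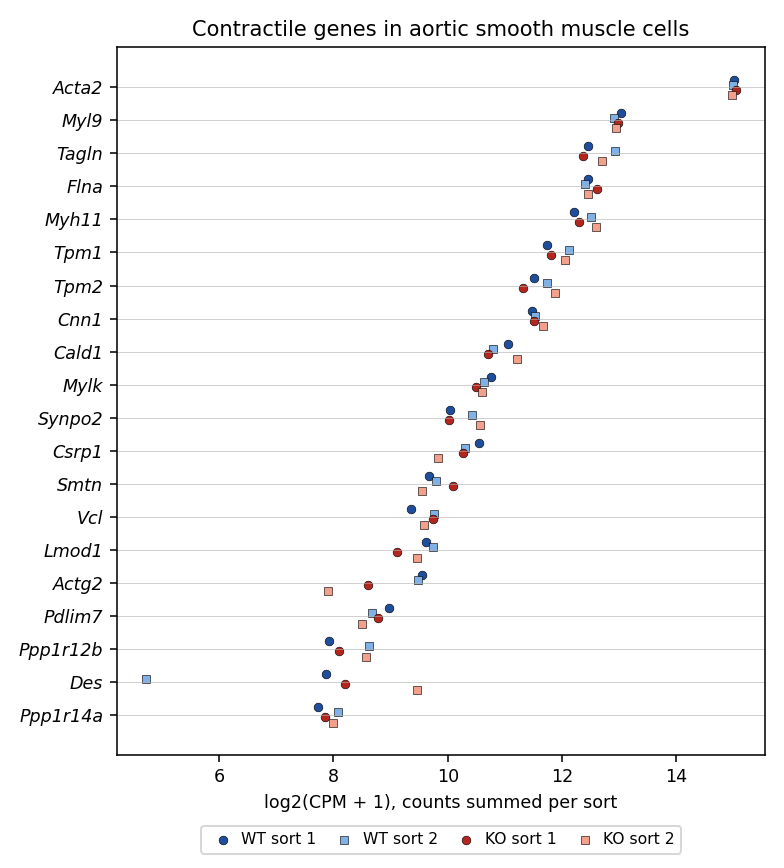
For each of the 20 contractile genes the horizontal axis gives log2(CPM + 1) in the 4 sums of smooth muscle cells, blue for WT and red for KO, circles for sort 1 and squares for sort 2. Red and blue points intermix for all but a few genes, and the widest spreads are those of Des and Actg2.

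A pair of contractile genes stood out from the list, in opposite directions. Actg2, the gamma smooth muscle actin of visceral muscle (chr6:83512905-83536265), was at 752 and 708 CPM in WT and at 388 and 238 CPM in KO. Both KO sums were below both WT sums, and the log2 fold change was -1.19 (SE 0.36, unadjusted p = 0.00636, adjusted p = 0.9997). The gene was read in part of the cells, 9 of 16 and 7 of 10 in WT and 17 of 31 and 6 of 13 in KO, and 1 cell gave between 38.2% and 48.3% of the counts of each sum. Des, the intermediate filament desmin, was at 233 and 25.5 CPM in WT and at 294 and 706 CPM in KO. Its log2 fold change was 2.003 (SE 0.76, unadjusted p = 0.0224, edgeR). Des passed the adjusted test without the filter on low counts (adjusted p = 0.0286, edgeR). Without WT sort 1, which leaves WT a lone sum, its log2 fold change was 4.34, and without WT sort 2 it was 1.18. Desmin was read in 9 of 26 WT and 12 of 44 KO cells, and 1 cell gave 64.5% of the counts of KO sort 2. By sort the cells were 4 of 16 and 5 of 10 in WT and 7 of 31 and 5 of 13 in KO. The share of cells was thus lower in KO at each sort number, while the summed level was higher.

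Transcription of the contractile genes depends on SRF, which binds the CArG box, and on its cofactor myocardin. The 250 bases upstream of Myl9 (RefSeq, GRCm38.p6, plus strand, chr2:156775214-156775463) are shown because they hold that box in the most highly read contractile gene that did not choose the cells. Its letters stand in capitals.
Myl9: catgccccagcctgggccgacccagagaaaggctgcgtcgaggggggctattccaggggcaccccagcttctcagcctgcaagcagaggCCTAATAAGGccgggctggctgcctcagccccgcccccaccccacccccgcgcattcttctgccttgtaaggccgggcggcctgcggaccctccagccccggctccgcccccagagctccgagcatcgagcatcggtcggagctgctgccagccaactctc
The 300 base windows around the start sites were searched on both strands. The strict CArG box was found in 2 of the 17 contractile genes in the promoter table (11.8%), Myl9 and Vcl, and in 1.81% of all 27025 genes. The interferon response element, spelled GAAA, a pair of any bases and GAAA again, was found in 1 contractile gene (5.88%), Mylk. Over all genes its share was 3.99%. A match describes these letters and is not evidence of binding. Myocd, the myocardin gene, was at 374 and 341 CPM in WT and at 397 and 393 CPM in KO. Both KO values were higher, by a log2 fold change of 0.18 (95% interval -0.59 to 0.95), which turned to -0.03 without the deepest cell of each sort. Of 12 transcription factor genes tested 4 were higher in both KO sums and 2 lower (15.5% and 16.1% of all genes), with a median log2 fold change of 0.04 (-0.03 without WT sort 2 and 0.37 without WT sort 1). Klf4, which represses the contractile genes in injured arteries, was at 20.99 and 7.75 CPM in WT and at 28.3 and 6.14 CPM in KO.

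Among the genes of smallest p, those higher in KO were led by Pcsk5, Il13ra1, Emb and Sost. The 12 higher and 12 lower genes with the smallest unadjusted p were taken among genes of at least 20 mean CPM whose KO sums did not overlap the WT sums, so their separation follows from the choice and none of the 24 passed the adjusted test. Sost and Slit3 were the most widely read of the higher genes. Sost, which encodes the secreted Wnt inhibitor sclerostin (chr11:101962458-101967015), was at 67.4 and 77.5 CPM in WT and at 216 and 276 CPM in KO, a log2 fold change of 1.81 (SE 0.45, unadjusted p = 0.00179). It had a count in 10 of 16 and 9 of 10 WT cells and in 26 of 31 and 13 of 13 KO cells, and no single cell gave over 32.9% of a sum. In the ECs of the same sorts Sost was between 3.90 and 7.84 CPM. Slit3, which encodes a guidance ligand of the Robo receptors (chr11:35121224-35708507), was at 88.4 and 109.6 CPM in WT and at 256 and 292 CPM in KO, with a log2 fold change of 1.51 (SE 0.42, unadjusted p = 0.00402). It was read in 21 of 26 WT and 41 of 44 KO cells. Over the alternatives the log2 fold change of Sost was between 1.36 and 2.15 and that of Slit3 between 0.41 and 1.79, with smallest adjusted p of 0.12 and 0.317.
The 250 bases upstream of Sost (RefSeq, GRCm38.p6, minus strand, chr11:101967016-101967265) are shown. Of the 12 higher genes Sost had the smallest maximum share of a sum from 1 cell (32.9%), though Slit3 was read in more cells. These bases are given as letters only. They hold neither the CArG box nor the interferon response element, and no letters are in capitals.
Sost: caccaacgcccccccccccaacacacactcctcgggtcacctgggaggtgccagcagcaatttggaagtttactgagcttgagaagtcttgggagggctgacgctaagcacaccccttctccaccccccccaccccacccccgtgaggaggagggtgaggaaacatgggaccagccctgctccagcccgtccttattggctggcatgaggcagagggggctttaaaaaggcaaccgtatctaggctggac
Neither motif was found in the windows of the 22 named genes that the promoter table holds.

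Other higher genes rested on fewer cells. Pcsk5, a proprotein convertase (chr19:17432319-17837632), was at 15.3 and 23.2 CPM in WT and at 173 and 89.7 CPM in KO, the smallest unadjusted p of the higher genes (log2 fold change 2.81, SE 0.66, p = 0.00113, edgeR). It was read in 4 of 16 and 3 of 10 WT cells and in 21 of 31 and 7 of 13 KO cells. Emb, the adhesion glycoprotein embigin, was at 105 and 119.5 CPM against 378 and 311 CPM, with a log2 fold change of 1.65. Il13ra1, a subunit of the interleukin 13 receptor, was at 18.97 and 23.2 CPM against 106 and 152 CPM, with counts in 7 of 26 WT and 21 of 44 KO cells. Lipa, the lysosomal acid lipase, was at 17.8 and 15.5 CPM against 65.5 and 138 CPM. Casq1, a calcium-binding protein of the sarcoplasmic reticulum, Ctps, an enzyme of CTP synthesis, Gps2 and Trpc4ap had log2 fold changes of 1.90, 1.94, 2.78 and 3.37. A single cell gave 83.2% of the Trpc4ap counts of KO sort 1, and another 86.7% of the Casq1 counts of WT sort 1. Over all kept wells of the Cd31- gate the Trpc4ap log2 fold change was 0.98. In Elmo1, an engulfment adaptor, 1 cell carried 99.7% of the 876 counts of KO sort 1 and another all counts of KO sort 2. Gadd45g, a stress-induced gene, was at 105 and 24.3 CPM in WT and 274 and 237 CPM in KO. Without WT sort 1, which leaves WT a lone sum, the log2 fold changes of Elmo1 and Gadd45g were 6.27 and 3.41. Without WT sort 2 they were 3.06 and 1.34. With all 4 sums their log2 fold changes were 3.75 and 1.99.

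Among the lower genes other than Actg2 the counts were small in KO. A4galt, a glycosyltransferase of globosides, was at 148 and 84.1 CPM in WT and at 17.8 and 12.3 CPM in KO, with a log2 fold change of -2.89 (SE 0.69) and counts in 14 of 26 WT and 11 of 44 KO cells. Rhoq, a small GTPase, was at 95.7 and 155 CPM against 17.2 and 28.3 CPM, with counts in 13 of 26 WT and 17 of 44 KO cells. Wfs1, a membrane protein of the endoplasmic reticulum, was at 102 and 63.1 CPM against 4.41 and 15.97 CPM. Timp1, an inhibitor of matrix metalloproteinases, was at 139 and 15.5 CPM against 6.89 and 0 CPM, and 98.5% of its counts in WT sort 1 came from 1 cell. The Timp1 log2 fold change was -4.17 with all 4 sums, -4.94 without WT sort 2 and -2.05 without WT sort 1. Xpnpep3, a mitochondrial aminopeptidase, and 9930021J03Rik were called by DESeq2 (adjusted p = 0.0196 for each) and not by edgeR. Xpnpep3 was at 49.2 and 55.3 CPM against 1.24 and 0 CPM, from 9 WT and 3 KO cells. Samd9l, Zc4h2, Usp1, Mpp6 and Pqlc3 had log2 fold changes between -3.79 and -2.86.

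**Figure D4:**
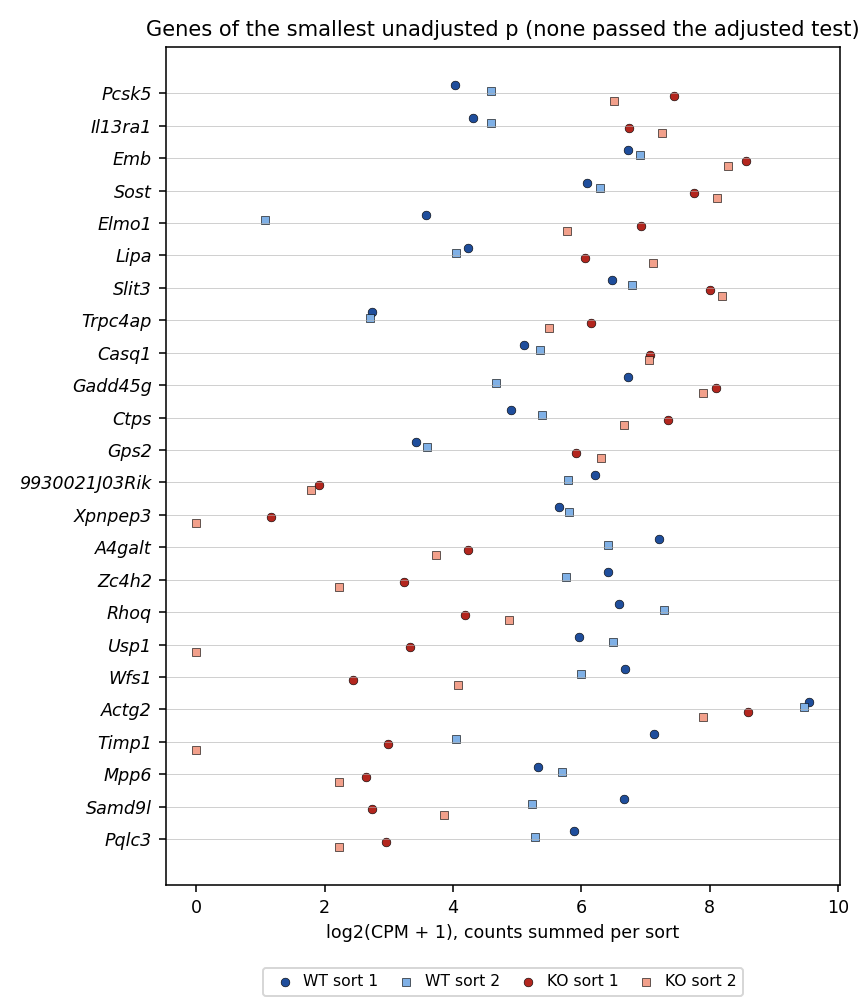
The 12 higher and 12 lower genes with the smallest unadjusted p among non-overlapping genes of at least 20 mean CPM, with log2(CPM + 1) in each of the 4 sums of smooth muscle cells on the horizontal axis, blue for WT and red for KO, circles for sort 1 and squares for sort 2. The genotypes are apart in every gene because the genes were chosen so. The 2 sums of a genotype differ most in Usp1 in KO, Timp1 in both genotypes and Elmo1 in WT.

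Matrix and elastic fibre genes gave no call. Among 19 collagen and matrix genes tested outside the rule, 5 were higher in both KO sums and 0 lower (15.5% and 16.1% of all genes), with a median log2 fold change of 0.14 (-0.07 without WT sort 2 and 0.23 without KO sort 2). Col18a1, a basement membrane collagen, was at 796 and 1182 CPM in WT and 1440 and 1260 CPM in KO, and Col6a3 at 145 and 127 CPM against 268 and 211 CPM. Mgp, which inhibits calcification of the wall, was at 7246 and 3689 CPM in WT and at 3023 and 5614 CPM in KO, overlapping. Of 15 elastic fibre genes tested 2 were higher and 1 lower in both KO sums (15.5% and 16.1% of all genes), with a median of 0.47 (-0.06 without KO sort 1 and 0.83 without WT sort 1). Fbln5, needed to assemble elastic fibres, was at 1020 and 648 CPM against 1260 and 1323 CPM, and Eln, elastin, at 1106 and 856 CPM against 1880 and 811 CPM. None of the 9 matrix protease and inhibitor genes tested was higher in both KO sums, and 5 (55.6%, against 16.1% of all genes) were lower, with a median of -0.35 (-0.36 without KO sort 2 and -0.25 without WT sort 1). Timp3, the most abundant of them, was at 1772 and 2022 CPM in WT and at 1341 and 1532 CPM in KO. Adamts5, an aggrecanase, was at 182 and 56.4 CPM against 31.9 and 47.9 CPM, with a log2 fold change of -1.55 (unadjusted p = 0.0431, edgeR). The Adamts5 log2 fold change was -0.48 without WT sort 1 and -2.14 without WT sort 2.

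Genes of the signals that reach smooth muscle from the endothelium gave no call. In the nitric oxide and natriuretic peptide list 4 of 10 genes tested were higher in both KO sums and 1 lower (15.5% and 16.1% of all genes), with a median log2 fold change of 0.13 (0.01 without KO sort 2 and 0.40 without KO sort 1). Npr1, the receptor for atrial natriuretic peptide, was at 60.1 and 86.3 CPM in WT and at 197 and 118 CPM in KO (log2 fold change 1.14, SE 0.51, unadjusted p = 0.0445). The 2 subunits of the nitric oxide receptor, Gucy1a3 and Gucy1b3, overlapped between the genotypes. Among receptors for endothelin, prostanoids, angiotensin and amines 2 of 6 genes tested were higher in both KO sums (15.5% of all genes), with a median of -0.04 that rested on single sorts (-1.90 without KO sort 1 and 1.91 without WT sort 1). Tbxa2r, the thromboxane receptor, was at 28.3 and 74.1 CPM against 75.0 and 82.3 CPM. Of 13 PDGF, FGF and IGF genes tested 1 was higher and 0 lower, with a median of -0.10 (-0.19 without KO sort 1 and 0.14 without WT sort 1). That gene was Pdgfb, read in 0 of 26 WT cells and in 5 of 44 KO cells, at 7.998 and 27.0 CPM, and the receptor gene Pdgfrb was at 84.8 and 144 CPM in WT and 125 and 192 CPM in KO. Among 8 Notch genes tested 1 was higher and 2 lower, with a median of -0.37 (-0.78 without WT sort 2 and -0.05 without WT sort 1). Notch3, the main Notch receptor of mural cells, was at 73.5 and 44.3 CPM against 30.5 and 36.9 CPM. Hey1, a Notch target, had counts in 3 KO cells and in no WT cell. In the TGF-beta and BMP list 4 of 20 genes tested were higher and 1 lower (15.5% and 16.1% of all genes), with a median of 0.00 (-0.10 without KO sort 2 and 0.16 without WT sort 2). Id1, a BMP target, was at 15.3 and 56.4 CPM in WT and at 122 and 95.8 CPM in KO (log2 fold change 1.66, SE 0.72, unadjusted p = 0.0397).

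Genes of YAP signalling and of cell adhesion, the processes AMOTL2 is known for, did not pass either. Of 18 YAP and angiomotin genes tested 3 were higher and 4 lower in both KO sums (15.5% and 16.1% of all genes), with a median log2 fold change of 0.33 (-0.05 without WT sort 2 and 0.71 without WT sort 1). Yap1 was at 121 and 90.7 CPM in WT and at 20.3 and 51.6 CPM in KO (log2 fold change -1.53, SE 0.68, unadjusted p = 0.0453). Yap1 had counts in 16 of 16 and 5 of 10 cells of WT sorts 1 and 2. In KO sorts 1 and 2 it had counts in 10 of 31 and 8 of 13 cells. The share of cells was thus lower in KO in sort 1 and higher in sort 2. The kinase gene Lats2, which inactivates YAP, was at 163 and 44.3 CPM against 31.6 and 28.3 CPM (log2 fold change -1.76, SE 0.73). The Lats2 log2 fold change was -0.54 without WT sort 1 and -2.38 without WT sort 2. Of YAP targets, Cyr61 was at 1347 and 1362 CPM against 1313 and 851 CPM, Ctgf at 253 and 845 CPM against 589 and 1153 CPM, and Axl at 178 and 292 CPM against 342 and 388 CPM. These 3 targets did not share a direction. Of 20 adhesion genes tested 2 were higher and 3 lower in both KO sums, beside 15.5% and 16.1% of all genes. The median of the list was 0.01 (-0.11 without KO sort 1 and 0.20 without WT sort 2). The integrin subunit gene Itgb3 was at 205 and 183 CPM in WT and at 106 and 43.0 CPM in KO (log2 fold change -1.34, SE 0.51, unadjusted p = 0.0219), read in 25 of 26 WT and 34 of 44 KO cells. Itgb1, its widely used relative, was at 1375 and 1486 CPM against 1803 and 2162 CPM, and Zyx, zyxin of focal adhesions, at 755 and 660 CPM against 526 and 326 CPM. The nuclear envelope list holds the lamins and the LINC complex that ties the nucleus to the cytoskeleton. In it 1 of 8 genes tested was higher and 2 lower, beside 15.5% and 16.1% of all genes. The median was -0.13 (-0.23 without WT sort 1 and 0.21 without WT sort 2). Lmna was at 497 and 615 CPM against 544 and 461 CPM.

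Inflammatory genes gave no call. The chemokine, cytokine and adhesion genes Ccl2, Cxcl1, Cxcl10, Icam1 and Tnf were at 3.03 CPM or less in every sum, and Vcam1 was at 89.2 and 0 CPM in WT and 6.76 and 38.1 CPM in KO. Of 12 inflammatory genes tested none was higher in both KO sums and 2 were lower (15.5% and 16.1% of all genes), with a median log2 fold change of -0.12 (-0.52 without KO sort 2 and 0.17 without WT sort 1). The list summed to 891 and 563 CPM in WT and to 663 and 577 CPM in KO. Its most abundant members were Nfkbia, an inhibitor of NF-kappaB, at 205 and 83.0 CPM in WT and 104.5 and 83.5 CPM in KO, and Il6st, the shared receptor subunit of the interleukin 6 family, at 143 and 90.7 CPM against 128 and 120.4 CPM. Immediate early genes, which tissue dissociation raises, were high, with Fos at 4188 and 2384 CPM in WT and at 3915 and 1381 CPM in KO. Of 17 such genes tested 1 was higher and 3 lower in both KO sums, beside 15.5% and 16.1% of all genes. The median of the list was -0.15 (-0.71 without KO sort 1 and 0.27 without KO sort 2). Btg2 was at 1215 and 647 CPM against 611 and 139 CPM (log2 fold change -1.30, SE 0.55, unadjusted p = 0.0358, edgeR), with 78.2% of the WT sort 1 counts from 1 cell. The Btg2 log2 fold change was -2.63 without KO sort 1 and -0.60 without KO sort 2. Egr1 was at 980 and 1178 CPM against 813 and 403 CPM, with a log2 fold change of -0.81. The counts of the lists that follow also stand beside 15.5% of all genes higher and 16.1% lower in both KO sums. Of 15 heat shock genes 1 was higher and 1 lower, with a median of -0.01 (-0.23 without KO sort 2 and 0.20 without KO sort 1). Of 11 ion channel and calcium genes tested 3 were higher and 0 lower, with a median of 0.03 (-0.06 without WT sort 1 and 0.24 without WT sort 2). Of 7 Hox and position genes tested 3 (42.9%, against 15.5% of all genes) were higher and 2 (28.6%, against 16.1%) lower. The median of this list was 0.33 (-0.43 without KO sort 2 and 0.44 without WT sort 1). Of 6 cell cycle genes tested 1 was higher and 1 lower, with a median of -0.62 (-0.95 without WT sort 2 and -0.02 without WT sort 1). Mki67 and other proliferation genes had too few counts to be tested.

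MHC class II genes, which ECs can express, had almost no counts in smooth muscle cells. H2-Eb1, H2-Ab1, H2-Aa and Cd74 were at 0 in all 4 sums, including WT sort 1, whose ECs held 571, 1202, 1370 and 3152 CPM of them. The ECs of the other 3 sorts held between 26.1 and 59.9 CPM of Cd74. Of 7 class II genes 1 could be tested. The interferon list summed to 471 and 407 CPM in WT smooth muscle cells and 243 and 405 CPM in KO, against 11332 and 4076 CPM in WT ECs and 3701 and 4004 CPM in KO ECs. Of its 14 genes tested none was higher in both KO sums and 5 (35.7%, against 16.1% of all genes) were lower, with a median log2 fold change of 0.04 that rested on single sorts (-1.55 without KO sort 2 and 0.29 without WT sort 1). Ifitm3 was at 182 and 187 CPM in WT against 104 and 81.1 CPM in KO. Igtp, an interferon-induced GTPase, was at 36.3 and 7.75 CPM in WT and at 0 in both KO sums, from 1 cell in each WT sort. Of 6 MHC class I genes tested 1 was higher and 1 lower, with a median of -0.21 (-0.41 without WT sort 2 and 0.07 without WT sort 1). B2m, the class I light chain, was at 1402 and 1287 CPM against 857 and 1765 CPM.

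**Figure D5:**
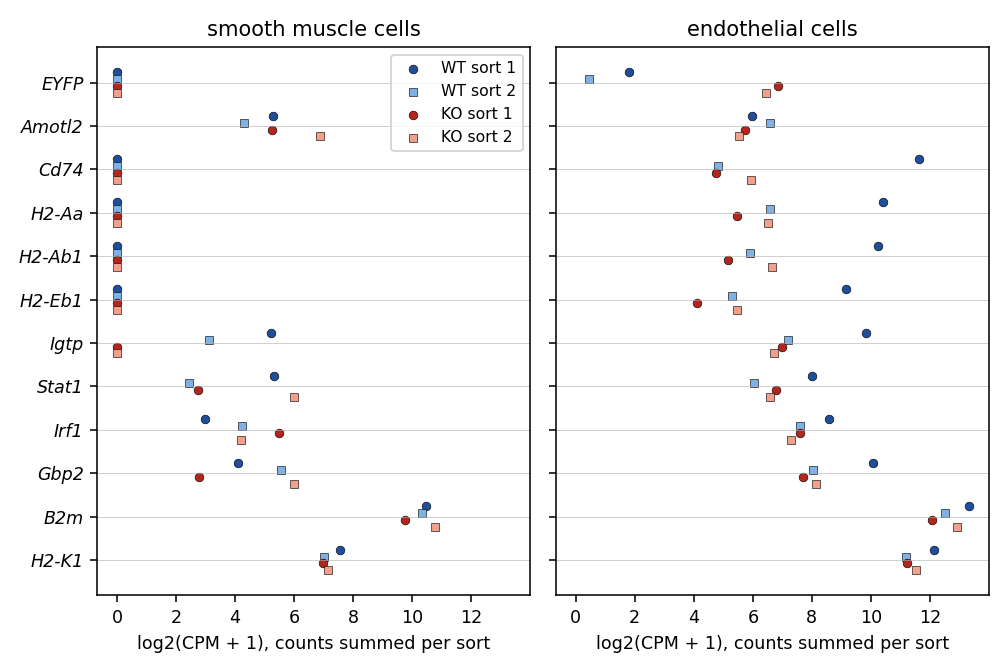
Log2(CPM + 1) of the reporter, Amotl2 and 10 MHC and interferon genes in the 4 sums of smooth muscle cells (left) and of ECs (right), blue for WT and red for KO, circles for sort 1 and squares for sort 2. EYFP and the 4 class II genes lie at 0 in smooth muscle cells of every sort, while in ECs EYFP is high in the KO sums and the class II genes are highest in WT sort 1.

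A direct test of whether KO differed from WT by another amount in smooth muscle cells than in ECs gave no call. Of 12362 genes tested over 8 sums, 0 (0%) passed an adjusted p of 0.05 with edgeR, the smallest adjusted p was 0.0592 for Tpm2, and 465 (3.76%) had an unadjusted p under 0.05. No other tool was run on this test. Leaving out a WT sort changed this, with 82 genes called without WT sort 1 and 118 without WT sort 2, against 0 without either KO sort. Tpm2, the beta tropomyosin, was at 2909 and 3413 CPM in WT and 2557 and 3749 CPM in KO smooth muscle cells, overlapping, so its difference lay on the endothelial side, with 6.90 and 4.52 CPM in WT ECs and 55.0 and 52.9 CPM in KO ECs. Likewise Cnn1, a gene of the rule, was at 4.06 and 2.31 CPM in WT ECs and 67.3 and 15.7 CPM in KO ECs, and Postn, the matrix protein periostin, at 1.22 and 0 CPM against 47.1 and 19.6 CPM, beside 1883 to 2513 CPM in smooth muscle cells. For Tpm2 and Postn no share of wells is given. With each cell thinned to 20000 counts, Cnn1 was read in between 1.40% and 2.25% of the ECs of a sort, so few wells carried the Cnn1 counts. Whether such wells held more than 1 cell was not tested.

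For the make-up of the control gate, and for the number of genes per cell at equal depth, the sorts of the 2 genotypes overlapped. Smooth muscle cells were 38.1% (16 of 42 wells, exact binomial interval 23.6 to 54.4) and 83.3% (10 of 12) of the kept wells in WT sorts 1 and 2, and 77.5% (31 of 40) and 92.9% (13 of 14) in KO sorts 1 and 2. WT sort 1 stood below the other 3, and the exact two-sided permutation test over the 4 sorts gave p = 0.667, where 2 sorts against 2 cannot go below 0.333. Without thinning a smooth muscle cell had 4005 and 4314 genes in the WT sorts and 3696 and 3791 genes in the KO sorts, with both KO sorts below both WT sorts. Thinned to 20000 counts, a smooth muscle cell had 2968 ± 356 and 3165 ± 511 genes in WT sorts 1 and 2 (SD over 16 and 10 cells) and 2743 ± 315 and 3051 ± 151 in KO sorts 1 and 2 (SD over 31 and 13 cells). The same exact permutation test on the 4 means, with a KO minus WT difference of -169 genes, gave p = 0.667. Neither permutation test paired the sorts by number. Within each number the smooth muscle share was higher in KO and the thinned genes per cell were lower.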

How the data were processed

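Aortic cells of 2 sorts per genotype were read with Smart-seq2 into 1024 wells. Per the submitters' processing notes the authors aligned reads with STAR 2.7.7a to GRCm38, with spike-in and EYFP sequences added, used Picard 2.22.0 and made gene counts with HTSeq 0.9.1, and the deposited values are raw counts. The annotation release is not given in the sources used here, nor is whether strand was used. Of 24519 lines 24422 were genes. Spike-in and summary lines, a median of 1.19% and 47.3% of a smooth muscle cell's reads, were left out. No mitochondrial gene was among them. Wells were filled by single-cell sorting and were not screened for doublets.

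Counts were summed per sort and compared by the quasi-likelihood test of edgeR 4.0.16 (glmQLFTest after TMM scaling and filterByExpr, genotype only) and, as an alternative, DESeq2 1.42.0, with Benjamini-Hochberg adjustment over all genes tested. The biological coefficient of variation was 0.683. The cell class by genotype test used smooth muscle cells and ECs (Endothelial label, same depth, at least 1 Cdh5 count) of each sort, with the 4 sorts as a term. Sorts of the same number were taken to share a preparation. After removal of group means, sums of the same number had a correlation of 0.03 across the tested genes, and of 0.18 across the 1615 with 100 CPM or more. Simulated sums in which 200 genes were changed were run through these tests, and the share of them recovered is not given here. Software was R 4.3.3, scipy 1.17.1, pandas 2.3.3 and numpy 2.4.6. Exact binomial intervals (95%) cover counting error only. Coordinates are from GENCODE M21 (GRCm38), in which 23334 of 24422 symbols matched 1 gene.

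The cells, the 28 lists (446 genes) and the tests were chosen with earlier results of these data known. Named are Amotl2, EYFP, list members, any gene past the threshold and the 12 higher and 12 lower genes described above. Other genes were named after their values were seen. The name of 1 gene is not reported here.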

Additional observations from a re-analysis of the deposited data

How the results depend on the processing

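A stricter score, with a difference of at least 1, kept the same 70 cells, whose lowest difference was 2.216. Its values repeat those of the main fit in every count of alternatives below. The count of genes past the adjusted threshold in smooth muscle cells stayed at 0 with the replicate block (sort number as a term) and RLE factors. The count was also 0 with thinned cells, cells of at least 100000 counts, all wells of the gate and wells with a Cdh5 count. In a fit added after seeing the data, without the deepest cell of each sort, the count was 0 as well. It was 8 with DESeq2 (among them Xpnpep3, 9930021J03Rik, Angpt1, Zfp654, Sbspon, Zfp867 and Maml1), 1 without the filter and 0 to 13 over the sums left out. For the class by genotype test the paired fit, with sort number and genotype as the replicate block, and RLE factors gave 0, thinning 2 (Postn and Cnn1, the latter a gene that chose the cells), no filter 10, and leaving out each sort 0 to 118. The difference in genes per cell was -416 without thinning and -601 thinned to 100000 counts. Of 167 values of 12 listed genes 4 changed sign, Myl9 at -0.051 with thinning, -0.044 in deep cells and -0.00029 to 0.091 over the sums left out, and Myocd at -0.031 without the deepest cells. Of 307 list medians under alternatives 34 moved by more than the spread between sorts. RLE factors shifted the median of all genes by -0.02 (log2).

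With 2 sums per genotype and as few as 10 cells in a sum, many genes rest on 1 or a few cells, and the spread between mice is unknown. Shallow cells of KO sort 2 limit low genes most.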

Other observations

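In the Endothelial gate 6 of 676 kept wells had no Cdh5 count and a score difference at or above the lowest of the smooth muscle cells (2.216). There were 3 in WT sort 1 (1.28%, exact binomial interval 0.264 to 3.69), 1 in WT sort 2, 2 in KO sort 1 and 0 of 89 in KO sort 2. All 6 had a Pecam1 count and none had an EYFP count. The other 35 wells of the Cd31- gate without Cdh5 scored as fibroblasts, 25 and 1 in WT sorts 1 and 2 and 8 and 1 in KO sorts 1 and 2, and none of them had an EYFP count.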
